A study of Mus musculus with 28 samples.

Results

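Cytoplasmic ribosomal proteins build the large and small subunits of the ribosome, and each ribosome carries a single copy of nearly every one of them. Their genes are usually transcribed at matched levels in dividing cells. Mice carry X-linked genes for some of these proteins, and in male meiosis the sex chromosomes are transcriptionally silenced in pachytene primary spermatocytes. Autosomal retrocopies such as Rpl10l and Rpl39l encode near-identical proteins and are known for expression in testis. The genes examined here were all protein-coding genes of the GENCODE M21 annotation whose symbol holds Rpl or Rps followed by a digit, with Rplp0, Rplp1, Rplp2 and Rpsa and without the Rps6k kinases. This gave 92 of the 37122 genes in the table. Of these, 77 were core genes, 46 of the large and 31 of the small subunit, and 4 core genes were X-linked. Rpl10l and Rpl39l were set apart. A further 6 were paralogs (Rpl22l1, Rpl36al, Rpl3l, Rpl7l1, Rps27l and Rps27rt), 6 had pseudogene-type symbols, and Rps19bp1 carries the symbol but is no ribosomal protein.

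The study sequenced polyadenylated RNA from Csmd1 wildtype and knockout mouse siblings, with 28 libraries from 13 mice. The null allele replaces exon 1 and part of the first intron with a lacZ and neomycin cassette, on C57BL/6 by the labels and on a mixed 129SvEvBrd and C57BL/6 background by the study's methods. Males, sexually mature by the study's methods, gave Hoechst-sorted spermatogonia (wildtype mice 178 and 648, knockout mice 286 and 544), primary spermatocytes (wildtype 178 and 648, knockout 544, 550, 613 and 614), secondary spermatocytes (wildtype 178 and 648, knockout 286, 544 and 550) and spermatids (wildtype 178, 351 and 648, knockout 286 and 544). Whole testes, of which the study describes both sexually immature and mature ones, came from wildtype mice 178 and 648 and knockout mice 214, 269, 273, 286 and 308, and 1 ovary came from wildtype mouse 86. The labels give no ages, and the study's tables as read here give them for mice 178 and 351 among these mice, both mature. By the study's methods the sorted mice, among them mice 648 and 286 with whole testes, were mature too. Which testes were immature is not given in the sources used here. Stages of 1 mouse came from the same testis.

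Expression is given in RPKM, the reads of a transcript divided by its length and by the mapped reads of its library. A read was counted for every transcript it overlaps, so sums over transcripts favour genes with many transcripts. Differences between stages were therefore tested on the sum per gene, while levels are compared between genes only on the longest protein-coding transcript. In 27 libraries the values fell on whole reads, which gave an estimated 23785358 to 61631321 mapped reads per library. The primary spermatocyte library of mouse 613 showed no such steps, and genes with pseudogene-type symbols were high there. Its Rps12-ps3 was 287 RPKM, against 1.77 RPKM or less in the other 19 sorted libraries. The spermatogonia library of mouse 544 held 1402 RPKM of Prm1, the sperm protamine, whereas the spermatid libraries of mice 648 and 286 held 0.579 and 2.14 RPKM. The spermatid libraries of mice 178, 351 and 544 held 2579, 1299 and 930 RPKM. The whole testes of mice 648 and 286 held only 0.681 and 1.16 RPKM. The spermatid stage thus joins libraries with and without late spermatid transcripts, although the study's methods call the sorted mice mature. Sertoli cell markers summed to 361 to 650 RPKM over 6 genes in spermatogonia, mostly Clu, against 30.9 to 158 RPKM in primary spermatocytes and 28.9 to 311 RPKM in spermatids. Wt1, a Sertoli cell transcription factor, was 38.7, 85.6, 42.7 and 47.1 RPKM in spermatogonia and 2.06 to 21.1 RPKM in primary spermatocytes. Peritubular and stromal markers summed to 30.4 to 813 RPKM over 6 genes in spermatogonia, 2.15 to 48.6 RPKM in primary spermatocytes and 2.78 to 28.2 RPKM in spermatids. Leydig cell markers summed to 10.7 to 328, 3.29 to 83.1 and 2.10 to 11.9 RPKM in the same stages, and macrophage markers to 8.61 to 60.3, 1.54 to 7.31 and 2.69 to 5.36 RPKM. Primary spermatocyte markers summed over 6 genes to 389 to 1946 RPKM in spermatogonia, with a median of 968. In primary spermatocytes they summed to 440 to 2421 RPKM, with a median of 978. The members of this list differed. Piwil1 was 22.2, 5.41, 28.4 and 48.9 RPKM in the spermatogonia of mice 178, 648, 286 and 544 and 121 to 437 RPKM in primary spermatocytes. Sycp1, Sycp3, Hormad1, Spo11 and Ccna1 overlapped between these stages. Sycp3 was 196 to 1015 RPKM in spermatogonia and 117 to 1585 RPKM in primary spermatocytes, and Ccna1 was 5.04 to 42.4 and 7.92 to 59.0 RPKM. The part of all these cells in the stage differences was not tested. The targeted gene Csmd1 ranged from 0.033 to 1.66 RPKM in the wildtype and from 0.049 to 6.33 RPKM in the knockout sorted libraries. These are sums over transcripts, of which the deletion covers the first exon only, so they do not check the genotype labels.

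The coding sequences of the paralog pairs show how the gene copies can be told apart in the reads. They were read from the GENCODE M21 transcripts (GRCm38), with every base that differs between parent and paralog in capitals. The whole coding sequence is shown for Rpl39 (chrX:37082701-37085127, minus strand, spread over exons) and Rpl39l (chr16:10174310-10174465, plus strand), and the first 150 bases for Rpl10 (chrX:74271002-74273067, plus strand, spread over exons) and Rpl10l (chr12:66283713-66284357, minus strand). Rpl10l has 1 exon.
Rpl39: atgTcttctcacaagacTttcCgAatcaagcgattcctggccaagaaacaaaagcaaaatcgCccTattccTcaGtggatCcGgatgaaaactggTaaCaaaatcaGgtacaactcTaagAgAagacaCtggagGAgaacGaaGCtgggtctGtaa
Rpl39l: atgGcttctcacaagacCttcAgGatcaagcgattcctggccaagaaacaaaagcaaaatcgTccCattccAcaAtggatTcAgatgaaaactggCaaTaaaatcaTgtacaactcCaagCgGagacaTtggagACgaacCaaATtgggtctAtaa
Rpl10: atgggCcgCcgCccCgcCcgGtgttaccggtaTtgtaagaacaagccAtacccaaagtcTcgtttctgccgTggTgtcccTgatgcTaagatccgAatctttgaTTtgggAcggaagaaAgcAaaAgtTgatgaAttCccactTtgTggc
Rpl10l: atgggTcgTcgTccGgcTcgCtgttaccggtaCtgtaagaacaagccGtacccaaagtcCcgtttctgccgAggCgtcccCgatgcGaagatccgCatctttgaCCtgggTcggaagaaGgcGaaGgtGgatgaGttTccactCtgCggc
Rpl39 and Rpl39l differed at 23 of 156 bases and were 85.3% identical. Of 52 codons, 21 differed, and 3 of those changed the encoded residue. Rpl10 and Rpl10l differed at 98 of 645 bases, 84.8% identity, and 96 of 215 codons differed with 3 residue changes. Most differing bases were at the last position of a codon, 89 of 98 for Rpl10l and 16 of 23 for Rpl39l. The longest stretch without a difference was 38 bases in the Rpl39 pair and 23 bases in the Rpl10 pair, so that a read across either coding sequence holds a differing base wherever it is longer than these stretches.

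All 4 X-linked core genes fell from spermatogonia to primary spermatocytes, by 13.0-fold to 21.4-fold, in the fit across all 20 sorted libraries. Rpl10 encodes a large-subunit protein that joins late in subunit assembly, Rpl36a and Rpl39 encode large-subunit proteins, and Rps4x encodes a small-subunit protein. On the longest transcript, Rpl39 stood at 56.7 and 58.5 RPKM in the wildtype spermatogonia of mice 178 and 648 and at 51.8 and 8.11 RPKM in the knockout spermatogonia of mice 286 and 544. In the 6 primary spermatocyte libraries Rpl39 ranged from 1.0 to 11.05 RPKM with a median of 1.64. The highest primary spermatocyte value was that of mouse 613, and it was the only one above the lowest spermatogonia value, that of mouse 544. Rpl39 was 7.05 and 6.12 RPKM in wildtype and 7.39, 1.82 and 1.80 RPKM in knockout secondary spermatocytes. In spermatids it was 1.36, 1.72 and 0.475 RPKM in wildtype and 4.08 and 0.734 RPKM in knockout mice, all below every spermatogonia library.

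Rpl10 was also highest in spermatogonia on the longest transcript. Its spermatogonia values were 25.1 and 31.7 RPKM in wildtype and 20.8 and 6.87 RPKM in knockout mice, with mouse 544 again lowest. Primary spermatocytes ranged from 0.521 to 6.83 RPKM with a median of 1.09, secondary spermatocytes from 1.16 to 5.39 RPKM and spermatids from 0.522 to 3.10 RPKM. No later library reached the lowest spermatogonia value. Rpl36a was 65.3, 92.8, 87.3 and 18.5 RPKM in the spermatogonia of mice 178, 648, 286 and 544, and 0.000 to 15.1 RPKM in primary spermatocytes. Rps4x, the lowest of the 4 genes, was 6.37, 23.7, 9.60 and 3.47 RPKM in these spermatogonia and 0.279 to 4.64 RPKM in primary spermatocytes, where the library of mouse 613 was above the spermatogonia of mouse 544.

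The log2 differences of primary spermatocytes minus spermatogonia, on RPKM plus 0.1 summed per gene, were -4.42 for Rpl36a (SE 0.74, limma adjusted p = 0.000642), -4.18 for Rpl39 (SE 0.64, adjusted p = 0.00047), -3.73 for Rps4x (SE 0.73, adjusted p = 0.00142) and -3.70 for Rpl10 (SE 0.65, adjusted p = 0.00082). Of all 19035 genes tested, 22.0% were called lower in this comparison, and of the 904 X-linked genes 55.0% were. Within each of the 3 mice with both stages all 4 genes were lower in primary spermatocytes, with a median difference of -5.23 in mouse 178, -5.21 in mouse 648 and -2.44 in mouse 544. The other X-linked genes with a mean of at least 10 RPKM had a median of -3.48 over 132 genes. Of these, 52 lay below the Rpl10 difference and 7 below the Rpl36a difference. The X-linked ribosomal genes thus lay within the range of other well-expressed X-linked genes, all below their median. Rps4x, with a mean of 7.28 RPKM, did not itself reach 10 RPKM. Each of the 4 calls was kept in all 17 alternative fits, here and against spermatids.

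**Figure D1:**
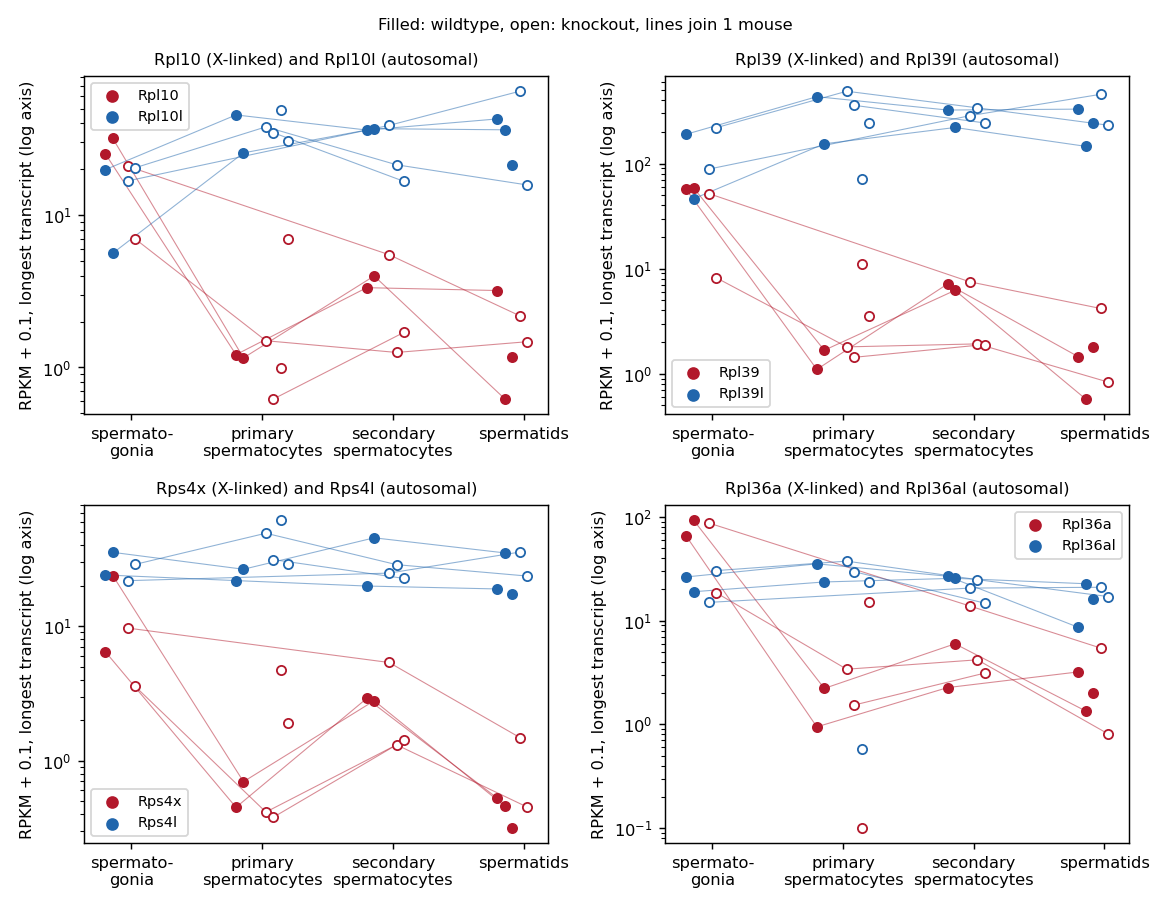
RPKM plus 0.1 of the longest transcript (log axis) of 4 X-linked genes (red) and their autosomal paralogs (blue) in the 20 sorted libraries by stage; filled points are wildtype, open points knockout, and lines join stages of 1 mouse. The mean of each X-linked gene is highest in spermatogonia, and the paralog lies above it in every later library.

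From primary to secondary spermatocytes no ribosomal gene was called in either direction by limma at an adjusted p under 0.05, with 7 of 90 at an unadjusted p under 0.05, beside 4126 of all 19035 genes. Of all genes, 2.85% were called higher and 0.194% lower. The largest rise was that of Rps4x, with a log2 difference of 1.95 (SE 0.69, adjusted p = 0.117), and the largest decrease was that of Rpl3l, with -1.51 (SE 0.57, adjusted p = 0.132). The 4 X-linked core genes had a median of 1.07 and were higher on the log2 scale. The other 900 tested X-linked genes had a median of 1.23, and 10.1% of them were called higher, so this rise was not particular to the ribosomal genes. The 73 autosomal core genes had a median of -0.18 against 0.18 for all genes. The autosomal median depended on the primary spermatocyte library of mouse 613. Without that library it was -0.53, with 72 of 73 genes below 0, against 0.25 for all genes. With the mouse as a block, Rps4x was called higher and 6 genes lower, among them Rpl14, Rps3 and Rps27a.

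From secondary spermatocytes to spermatids only Rps19bp1 was called by limma, with a log2 difference of -2.08 (SE 0.44, adjusted p = 0.0435), and 8 of 90 genes had an unadjusted p under 0.05, beside 3361 of all 19035 genes. Of all genes, 0.531% were called lower and 0.00525% higher. Rps19bp1 encodes a protein that binds a small-subunit protein. It was 18.2, 8.83, 7.35, 12.2 and 8.71 RPKM summed in secondary spermatocytes and 1.80, 1.57, 3.30, 3.48 and 2.42 RPKM in spermatids, which did not overlap. This call was lost without any 1 of mice 178, 286, 351, 544, 550, 614 and 648, with differences from -2.50 to -1.77. Rps4x had the largest decrease, -2.22 (SE 0.71, adjusted p = 0.132), and Rpl22l1 the largest rise, 0.38 (SE 0.41, adjusted p = 0.667). With the mouse as a block 6 genes were called lower, Rpl39, Rps4x, Rpl10a, Rpl14, Rps3 and Rps19bp1.

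Rpl10l rose from spermatogonia to primary spermatocytes by 2.55-fold. This autosomal paralog of Rpl10 was 19.8 and 5.52 RPKM in the wildtype and 16.7 and 20.3 RPKM in the knockout spermatogonia of mice 178, 648, 286 and 544. In primary spermatocytes it ranged from 25.5 to 48.4 RPKM with a median of 36.2, above every spermatogonia library. Secondary spermatocytes held 36.0 and 36.8 RPKM in wildtype and 38.7, 21.3 and 16.5 RPKM in knockout mice, and spermatids held 42.6, 21.1 and 36.2 RPKM in wildtype and 64.8 and 15.7 RPKM in knockout mice. The 2 lowest later values, from mice 550 and 544, overlapped the spermatogonia values. Between 256 and 1179 estimated reads lay behind the Rpl10l values of wildtype spermatogonia and between 1299 and 2727 behind those of wildtype primary spermatocytes.

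The log2 difference of Rpl10l was 1.35 (SE 0.46, limma adjusted p = 0.0341) in primary spermatocytes and 1.19 (SE 0.48, adjusted p = 0.0497) in spermatids, both against spermatogonia. Of all genes, 9.52% and 14.9% were called higher in these comparisons, and Rpl10l was the only one of the 90 tested ribosomal genes called higher in either. The first call was lost without mouse 648 (1.10, adjusted p = 0.224), 178 (1.60, adjusted p = 0.0747), 286 (1.28, adjusted p = 0.0571) or 550 (1.37, adjusted p = 0.057) and in the wildtype libraries alone (1.69, adjusted p = 0.0962). The second was lost without mouse 286 (0.61, adjusted p = 0.415), 648 (0.69, adjusted p = 0.351), 550 (1.19, adjusted p = 0.0676) or 614 (1.19, adjusted p = 0.0589), without the spermatogonia library of mouse 544 (1.27, adjusted p = 0.0602), in the wildtype libraries alone (1.60, adjusted p = 0.0645), and with a pseudocount of 1, no filter or the longest transcript, where its adjusted p was 0.0505 to 0.0613. With the mouse as a block the differences were 1.47 (adjusted p = 0.00634) and 1.25 (adjusted p = 0.0108). Rpl10l was higher in primary spermatocytes in each of the 3 mice with both stages, by 1.19, 2.19 and 0.89 on the log2 scale in mice 178, 648 and 544, and higher in spermatids in 3 of 4 mice, mouse 544 being at -0.38.

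Rpl39l was the tenth member by mean level over sorted cells on the longest transcript, at 255 RPKM. Its spermatogonia values were 190 and 46.2 RPKM in wildtype and 88.4 and 219 RPKM in knockout mice. Primary spermatocytes ranged from 71.1 to 488 RPKM with a median of 302, the lowest being mouse 613. Secondary spermatocytes ranged from 220 to 339 RPKM and spermatids from 146 to 456 RPKM. The log2 differences against spermatogonia were 1.21 in primary spermatocytes (SE 0.54, limma adjusted p = 0.0951) and 1.25 in spermatids (SE 0.55, adjusted p = 0.0733), which did not pass the test. Without the library of mouse 613 they were 1.40 (adjusted p = 0.0354) and 1.25 (adjusted p = 0.0447). Without the spermatogonia library of mouse 544 they were 1.54 (adjusted p = 0.0499) and 1.57 (adjusted p = 0.0367), and with the mouse as a block 1.33 (adjusted p = 0.0187) and 1.24 (adjusted p = 0.0189), all past the threshold. Over all 17 alternatives the differences ranged from 0.89 to 1.54 (adjusted p from 0.0187 to 0.331) and from 0.68 to 1.82 (adjusted p from 0.0189 to 0.517), the lowest being those without mouse 286 (0.89, adjusted p = 0.331, and 0.68, adjusted p = 0.517).

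The share of the paralog in each pair was compared within mice, as paralog over paralog plus parent in percent. On the longest transcript, Rpl10l made up 44.5% ± 24.5 (SD, n = 4) of its pair in spermatogonia, 94.8% ± 6.5 (SD, n = 6) in primary spermatocytes, 91.2% ± 2.6 (SD, n = 5) in secondary spermatocytes and 95.1% ± 2.7 (SD, n = 5) in spermatids. Rpl39l made up 70.1% ± 22.1 (SD, n = 4) in spermatogonia and 97.2% ± 5.2 (SD, n = 6), 98.3% ± 1.0 (SD, n = 5) and 99.5% ± 0.26 (SD, n = 5) in the later stages. Rpl36al, an autosomal intronless copy of Rpl36a with 1 exon on chromosome 12, rose from 30.5% ± 21.9 (SD, n = 4) to 89.5% ± 14.5 (SD, n = 6) in primary spermatocytes. Rps4l, annotated as a transcribed pseudogene on chromosome 6 and so not a member, went from 74.4% ± 12.6 (SD, n = 4) to 97.0% ± 2.7 (SD, n = 6). In all 16 later sorted libraries each of these 4 paralogs stood above its X-linked parent.

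On the summed values the shares rose by 55.3 percentage points for Rpl10l, 20.02 for Rpl39l, 31.4 for Rps4l and 52.7 for Rpl36al, as the mean over the 4 mice with spermatogonia and later stages, and the share was higher later in 4 of 4 mice for each. A two-sided exact permutation test over the 192 ways of exchanging stages within mice gave p = 0.0052 for each, the smallest it can give, and an adjusted p of 0.0104 over the 8 pairs. The levels of Rps4l and Rpl36al themselves did not pass the test, with log2 differences of 0.21 (SE 0.37, limma adjusted p = 0.724) and 0.32 (SE 0.39, adjusted p = 0.586) in primary spermatocytes. The X-linked parent, which fell, is part of each of these shares.

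The 4 pairs with an autosomal parent did not show the shift on the summed values. The change in share was 7.57 percentage points for Rpl22l1 (exact permutation adjusted p = 0.174), -5.92 for Rps27l (adjusted p = 0.15), -0.80 for Rpl3l (adjusted p = 0.214) and -0.36 for Rpl7l1 (adjusted p = 0.245). On the longest transcript the Rpl22l1 change was 38.4 percentage points (exact permutation adjusted p = 0.0167), higher later in 4 of 4 mice. There Rpl22l1 was 10.98, 11.4, 12.7 and 12.1 RPKM in the spermatogonia of mice 178, 648, 286 and 544, while Rpl22 was 76.6, 67.2, 46.5 and 38.7 RPKM and its highest value in spermatids was 10.4 RPKM. Rpl3l, known from striated muscle, reached at most 1.06 RPKM. It was called lower in spermatids against spermatogonia, with a log2 difference of -2.62 (SE 0.61, limma adjusted p = 0.0027), a call lost in the wildtype libraries alone (-2.13, adjusted p = 0.0713), as was Rpl7l1, with -2.22 (SE 0.45, adjusted p = 0.00106).

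Of the 73 autosomal core genes, 3 were called lower in primary spermatocytes and 29 in spermatids, both against spermatogonia, and none was called higher in either. Of all genes, 22.0% and 30.0% were called lower in these comparisons, beside 4.11% and 39.7% of these 73 genes. Their median log2 difference was -0.77 in primary spermatocytes and -1.44 in spermatids, beside -0.27 and -0.38 over all genes, and 69 and 72 of 73 were below 0. Without the library of mouse 613 the median in primary spermatocytes was -0.5, beside -0.31 over all genes, with 59 of 73 below 0. Over all 90 tested members 7 and 36 were called lower. Those counts were 13 and 54 with the mouse as a block, 21 and 58 after quantile normalization, where the median of all genes moved to 0.08 and 0.00, and 11 and 54 without mouse 613. Without mouse 286 they were 4 and 18, without mouse 648 4 and 25, without mouse 544 14 and 22, and without the spermatogonia library of mouse 544 12 and 35. In bulk RNA of sorted cells, fewer cells of a type and less RNA per cell cannot be told apart.

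Within mice, the median autosomal core difference of spermatids minus spermatogonia was -1.85 in mouse 178, -1.42 in mouse 648, -1.06 in mouse 286 and -1.03 in mouse 544, with 70 to 73 of 73 genes below 0. The step to primary spermatocytes was less even, at -0.53 in mouse 178, -1.27 in mouse 648 and 0.45 in mouse 544. In mouse 544 only 12 of 73 genes were below 0, and its spermatogonia library held the late spermatid transcripts given above. Their part in this difference was not tested.

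**Figure D2:**
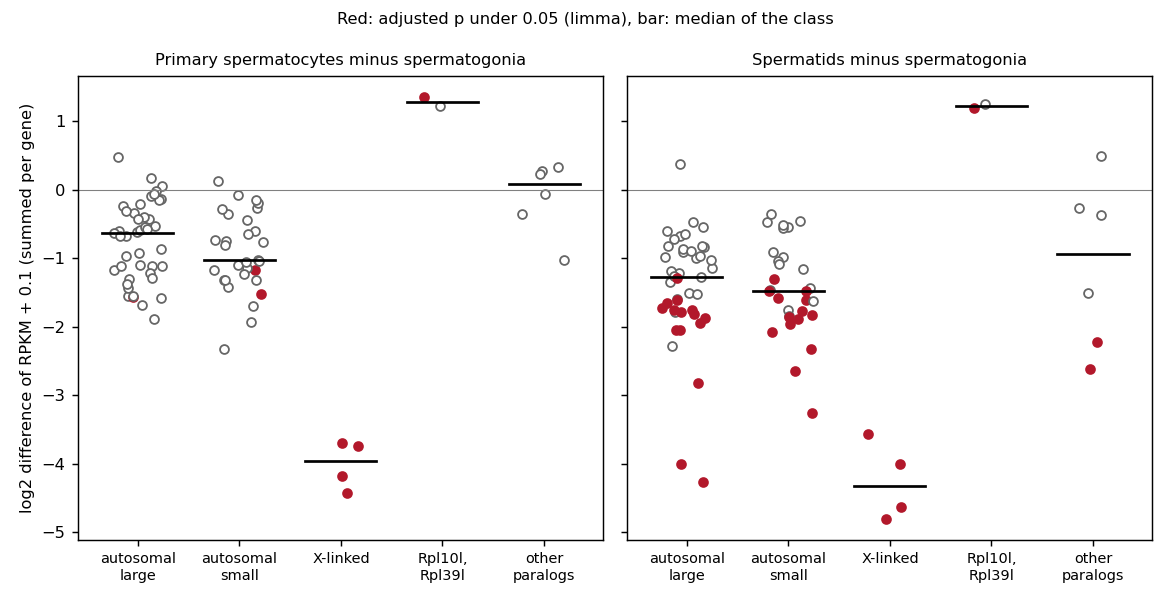
log2 difference of RPKM plus 0.1, summed per gene, for primary spermatocytes minus spermatogonia (left) and spermatids minus spermatogonia (right), by class of ribosomal gene; each point is a gene, red points have an adjusted p under 0.05 in limma, and bars are class medians. The 4 X-linked genes lie between -3.70 and -4.42 on the left, Rpl10l and Rpl39l lie above 1, and more autosomal genes are red on the right.

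Among the autosomal core genes called lower in primary spermatocytes were Rpl14 and Rps3a1. Rpl14, a large-subunit protein gene on chromosome 9, was 236, 359, 286 and 80.9 RPKM in the spermatogonia of mice 178, 648, 286 and 544. It was 34.7 to 168 RPKM in primary spermatocytes, 31.0, 34.0, 37.6, 46.9 and 22.1 RPKM in secondary spermatocytes and 9.88, 10.4, 15.7, 28.1 and 7.42 RPKM in spermatids. Its mean was lower at each step, of which the later ones did not pass the test, and the spermatids lay below all spermatogonia. The log2 difference of Rpl14 was -1.56 in primary spermatocytes (SE 0.50, limma adjusted p = 0.0252) and -4.00 in spermatids (SE 0.52, adjusted p = 4.8e-05), the smallest adjusted p of any ribosomal gene there, followed by Rpl39 at -4.64 (SE 0.66, adjusted p = 8.5e-05) and Rpl36a at -4.80 (SE 0.75, adjusted p = 0.000173). The decrease in primary spermatocytes was lost without mouse 178 (-1.78), 286 (-1.11) or 648 (-1.34).

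Rps3a1, which encodes a small-subunit protein, was 108, 176, 178 and 51.1 RPKM in spermatogonia and 12.8, 14.95, 20.2, 33.7 and 13.3 RPKM in spermatids, without overlap. Its log2 difference was -1.52 in primary spermatocytes (SE 0.43, limma adjusted p = 0.0121), which was not called without mouse 286 (-1.07) or 648 (-1.13), and -2.65 in spermatids (SE 0.44, adjusted p = 0.000246). Rps3a1, Rpl10a and Rps3 were named after their values were seen. Rpl10a and Rps3 had log2 differences of -4.27 and -3.26 in spermatids (SE 0.71 and 0.54, adjusted p = 0.000248 and 0.000251). Rpl10a was 857, 905, 1071 and 361 RPKM in spermatogonia and 54.1, 31.1, 30.0, 85.6 and 18.2 RPKM in spermatids. At the other end Rpl36 had the highest difference of a core gene, 0.37 (SE 0.49, adjusted p = 0.563).

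The members with the highest mean level over sorted cells, on the longest transcript, were Rpl32 at 426 RPKM, Rps26 at 404, Rpl41 at 348, Rps24 at 324 and Rps29 at 312 RPKM. Rpl32 went from 726 ± 464 RPKM (SD, n = 4) in spermatogonia to 321 ± 239 RPKM (SD, n = 5) in spermatids, and Rps29 from 447 ± 155 RPKM (SD, n = 4) to 299 ± 68 RPKM (SD, n = 5). The spread between mice was therefore large beside the stage difference for these genes. The 77 core genes together made up 3.68% ± 0.74 (SD, n = 4) of the summed longest-transcript RPKM of all genes in spermatogonia, 2.90% ± 0.98 (SD, n = 6) in primary spermatocytes, 2.31% ± 0.20 (SD, n = 5) in secondary spermatocytes and 1.78% ± 0.32 (SD, n = 5) in spermatids. The 4 X-linked genes made up 0.861% ± 0.410 (SD, n = 4) of the core in spermatogonia and 0.133% ± 0.146 (SD, n = 6) in primary spermatocytes. The median in primary spermatocytes was 0.053%, and mouse 613 was highest at 0.362%. The ratio of large-subunit to small-subunit sums was 1.30 ± 0.11 (SD, n = 4) in spermatogonia, 1.56 ± 0.23 (SD, n = 6) in primary spermatocytes and 1.33 ± 0.17 (SD, n = 5) in spermatids. Among primary spermatocytes this ratio was 1.95 in mouse 613 and 1.27 to 1.61 in the other libraries.

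**Figure D3:**
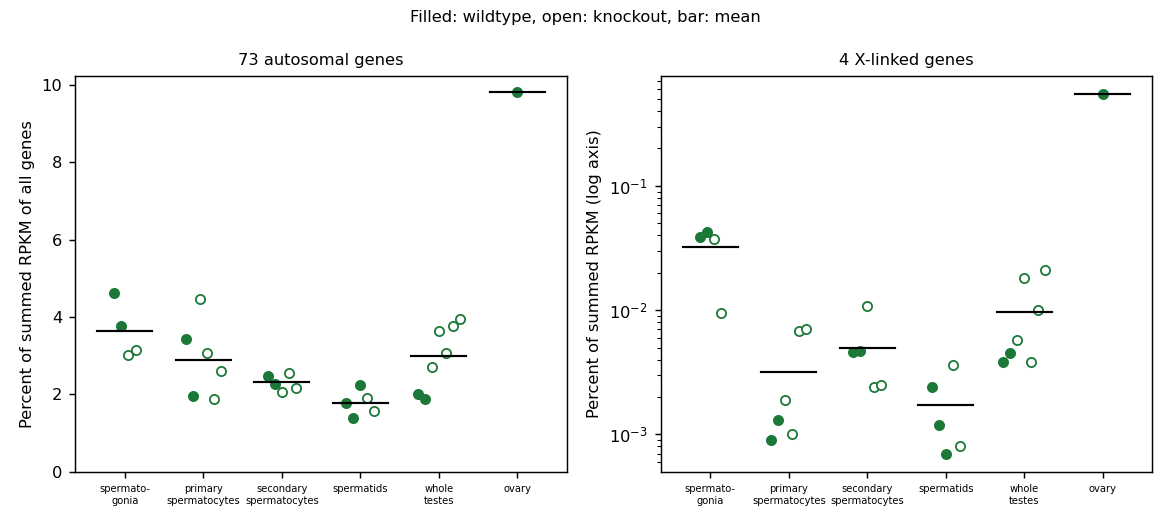
Share of the summed longest-transcript RPKM of all genes taken by the 73 autosomal (left) and the 4 X-linked core genes (right, log axis), in percent by library; filled points are wildtype, open points knockout, bars are means. All spermatid libraries lie below all spermatogonia libraries on the left, and the ovary stands above every testis library in both.

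Other genes of the translation machinery were measured beside the members. Fau encodes a ubiquitin-like fusion of a ribosomal protein, and Rack1 encodes a protein of the small-subunit head. Rack1 was called lower in spermatids, with a log2 difference from spermatogonia of -3.39 (SE 0.60, limma adjusted p = 0.000392). Fau was at -0.81 in primary spermatocytes and -0.29 in spermatids, with adjusted p = 0.489 and 0.801. Of 30 ribosome biogenesis genes, which serve rRNA transcription and subunit assembly in the nucleolus, 9 were called lower and 1 higher in primary spermatocytes and 18 lower and 0 higher in spermatids. Of all genes, 22.0% were called lower and 9.52% higher in the first comparison and 30.0% lower and 14.9% higher in the second. The biogenesis genes had a median log2 difference of -0.77 and -1.88, beside -0.27 and -0.38 over all genes. The X-linked Dkc1, a pseudouridine synthase, had differences of -3.98 and -6.25, and the autosomal Fbl, the rRNA methyltransferase, of -2.18 and -2.48. Taf1b, a subunit of the RNA polymerase I selectivity factor, was called higher in primary spermatocytes at 1.40 (SE 0.43, adjusted p = 0.0189). Of 78 mitochondrial ribosomal protein genes, 3 were called higher and 3 lower in primary spermatocytes, and 29 lower in spermatids, with medians of 0.19 and -0.77 beside the same shares and medians of all genes. A further list held elongation factors, poly(A)-binding proteins and other genes such as Tpt1, Naca, Btf3 and Npm1. Of its 11 tested genes, Tpt1 was called lower in primary spermatocytes, at -1.38. Pabpc2, a testis form of poly(A)-binding protein, was called higher there, at 2.25, and was also called higher in spermatids. X-linked genes called lower in spermatids were 38.1% of 904.

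The proportions among the core genes were compared between mice. Each core gene's longest-transcript RPKM was divided by the sum over the 77 genes in its library. In the 4 sorted libraries of mouse 648, 10 of the 77 genes were below and 7 above all 15 libraries of the other mice, leaving out mouse 613. Of 19030 genes set on the same scale, 1.31% were below and 0.189% above in this way. In the 4 libraries of mouse 178, 0 core genes were below and 1 above all 15 libraries of other mice, and in those of mouse 544, 0 were below and 0 above. Rps16 took 0.124% to 0.328% of the core in mouse 648 and 0.710% to 3.09% elsewhere, a 0.102-fold ratio of means. Rpl30, Rpl13a and Rpsa had ratios of 0.153, 0.204 and 0.223. Rpl23a took 3.33% to 5.12% in mouse 648 and 0.529% to 3.14% elsewhere, and Rpl32 took 7.52% to 9.17% against 2.24% to 4.34%. The proportions correlated between stages within mouse 648 with a median Pearson r of 0.918 over 6 pairs of libraries, and with other mice with a median of 0.774, across 77 genes, which are not independent. The same medians within the mouse and with other mice were 0.877 and 0.848 for mouse 178, 0.945 and 0.873 for mouse 544 and 0.837 and 0.848 for mouse 286. The named genes of mouse 648 were chosen after their values were seen. Median correlations with other mice were 0.848 to 0.905 for the remaining mice other than 613, at 0.343. The cause was not tested.

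**Figure D4:**
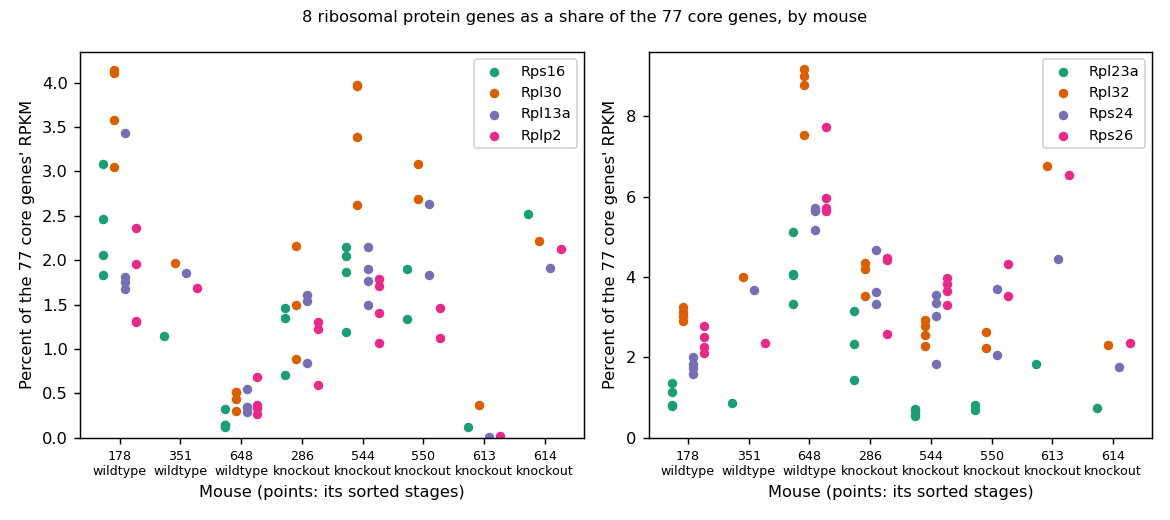
Share of the core genes' longest-transcript RPKM, in percent, for 4 genes with a low mean (left) and 4 with a high mean (right) in mouse 648; each point is a sorted library of the mouse named on the x axis. The values of mouse 648 keep together over its 4 stages, and those of mouse 613, which showed no whole-read steps, also stand apart.

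Genotype made no difference that passed the test among the ribosomal genes. In sorted cells 0 of 90 were called between libraries labelled knockout and wildtype by limma, with 7 at an unadjusted p under 0.05, beside 1630 of all 19035 genes, and 0.0105% of all genes were called. The autosomal core genes had a median log2 difference of -0.18, knockout minus wildtype, beside 0.24 over all genes. Rpl10l was at 0.08 (SE 0.32, adjusted p = 0.936), Rpl39l at 0.32 (SE 0.37, adjusted p = 0.778), Rpl10 at -0.04 (SE 0.45, adjusted p = 0.981) and Rpl39 at -0.18 (SE 0.45, adjusted p = 0.897). Without mouse 286, 1 gene was called. For the interaction of genotype and stage 0 of 90 were called and 0 had an unadjusted p under 0.05, beside 485 of all 19035 genes, with 0.0% of all genes called.

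In whole testes the members were higher in the libraries labelled knockout on the log2 scale, without any passing the test. By limma 0 of 88 were called and 47 had an unadjusted p under 0.05, beside 2492 of all 22763 genes, with 0.0% of all genes called. The core genes made up 2.02% and 1.89% of summed RPKM in wildtype testes 178 and 648 and 2.72%, 3.66%, 3.07%, 3.77% and 3.97% in knockout testes 214, 269, 273, 286 and 308. The median autosomal core difference was 1.09, and 0.48 after quantile normalization, beside 0.39 and 0.05 over all genes. The rise was not particular to these genes. The 78 mitochondrial ribosomal protein genes had a median of 1.03, with 35 at an unadjusted limma p under 0.05. The list of elongation, poly(A)-binding and other genes had a median of 0.84 and the ribosome biogenesis genes one of 0.82. Rpl10l had 1.40 (SE 0.41, limma adjusted p = 0.314), with 17.8 and 23.7 RPKM in wildtype testes and 40.7 to 78.8 RPKM in knockout testes. Prm1 was 603 and 0.681 RPKM in the wildtype testes and 1152, 0.850, 1922, 1.16 and 0.439 RPKM in the knockout testes in the same order, so testes with and without late spermatid transcripts occurred in both genotypes. Spermatogonia markers summed over 6 genes to 58.2 and 78.9 RPKM in the wildtype testes and to 66.9, 155, 74.5, 150.4 and 421 RPKM in the knockout testes. Stra8, induced at meiotic entry, was 2.85 and 11.3 RPKM in wildtype and 8.98, 21.1, 5.09, 17.1 and 58.1 RPKM in knockout testes. Uchl1, a spermatogonial marker, was 43.6 and 19.3 RPKM against 40.7, 99.9, 56.3, 101.3 and 251 RPKM. Kit, however, was highest in wildtype testis 648, at 1.68 and 16.5 RPKM against 5.40, 5.95, 3.62, 4.86 and 13.2 RPKM. Sall4 was 1.57 and 19.5 RPKM against 4.49, 7.33, 2.93, 9.92 and 44.3 RPKM. Dmrt1 was 7.88 and 11.3 RPKM against 6.61, 18.4, 6.22, 15.3 and 49.9 RPKM. Zbtb16 was 0.606 and 1.01 RPKM against 0.738, 1.95, 0.394, 1.82 and 4.29 RPKM. The part of these cells in the difference was not tested. The study's methods call the sorted males mature, which covers the whole testes of mice 178, 648 and 286. Testes 648 and 286 nevertheless held only 0.681 and 1.16 RPKM of Prm1. With 2 wildtype testes, genotype, age and other differences between these mice cannot be told apart.

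The ovary, a single library compared without a test, held higher levels of most ribosomal protein mRNAs than the testes, but not of Rpl10l and Rpl39l. Of 89 members with enough signal, 75 were at least 2-fold higher in the ovary than in both wildtype testes and 3 were 2-fold lower, against 41.7% and 17.7% of all genes. All 4 X-linked core genes were higher, Rps4x by 451-fold and Rpl10 by 315-fold over the higher testis on the summed values, Rpl36a by 76.8-fold and Rpl39 by 64.8-fold. The 3 members lower in the ovary were Rpl10l, Rpl39l and Rpl3l, which was listed at 0 there. On the longest transcript Rpl10l was 0.111 RPKM in the ovary, from an estimated 6 reads, and 17.8 and 23.7 RPKM in the wildtype testes. Rpl39l was 0.424 RPKM, from an estimated 18 reads, against 150 and 139 RPKM. Rpl10l was 0.016% and Rpl39l 0.109% of its pair in the ovary, beside 85.5% to 95.1% and 80.9% to 99.1% over the 7 whole testes. Core genes made up 10.4% of the ovary's summed RPKM, and 5.30% of that was X-linked. Rps27rt, a copy of Rps27, was 908 RPKM in the ovary. Rpl29 was the only core gene below both wildtype testes, at 55.4 RPKM summed against 66.4 and 228 RPKM.

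**Figure D5:**
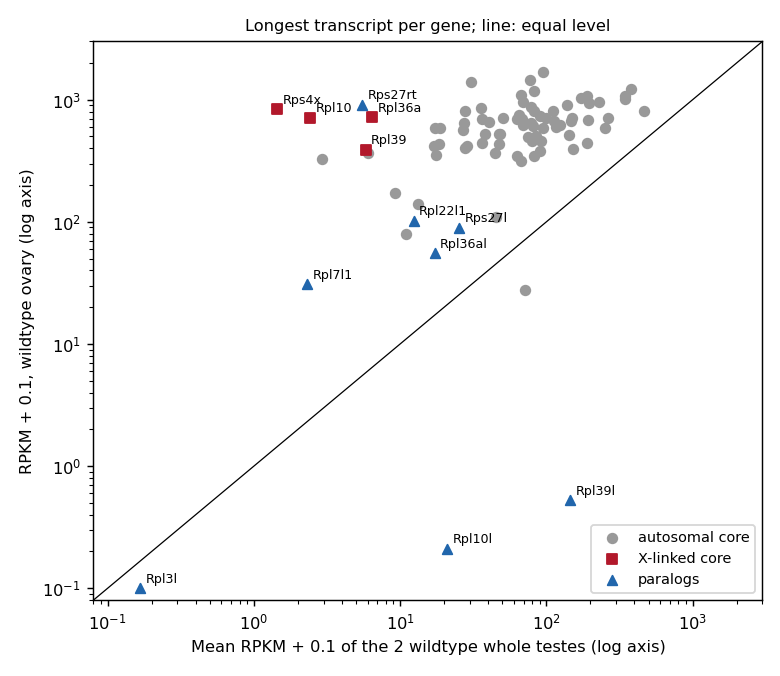
RPKM plus 0.1 of the longest transcript in the wildtype ovary against the mean of the 2 wildtype whole testes (both log axes) for core genes and paralogs; the line marks equal levels. The 4 X-linked core genes lie far above the line, and Rpl10l and Rpl39l lie far below it.

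A short pyrimidine tract at the transcription start, a C followed by at least 4 bases of C or T within 10 bases of the start on the sense strand, is a known feature of ribosomal protein genes. RefSeq promoters (GRCm38.p6) matched 57 of the 77 core genes by symbol, and 54.4% of these held such a tract, against 30.8% of all 27025 promoters. Of the 4 X-linked core genes, 2 held it. The 6 members with pseudogene-type symbols were at most 2.53 RPKM in sorted cells outside mouse 613. Rpl36-ps4 and Rpl9-ps1 did not reach a mean of 0.1 RPKM and were not tested in sorted cells, and Rpl9-ps6 was 45.8 RPKM in mouse 613.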

How the data were processed

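Transcript RPKM values were computed and deposited by the authors from 2 x 101 base paired-end reads of polyadenylated RNA, mapped to Ensembl R72 with TopHat2; the methods also name PEER and quantile normalization before testing, and the deposited values still fell on whole-read steps in 27 libraries. Of 94480 transcripts, 90339 (95.6%) matched GENCODE M21 (GRCm38) by identifier, giving 37122 genes and 348 transcripts of members. Values were summed per gene, and log2(RPKM + 0.1) was fitted with limma 3.58.1 (R 4.3.3), 1 mean per genotype and stage over 20 sorted libraries, for genes with a mean of at least 0.1 RPKM (19035 genes; 22763 in whole testes). Stage comparisons averaged the genotypes. P-values were adjusted over all genes by Benjamini-Hochberg at 0.05. A fold change on this scale understates the change of low genes. A simulation with 200 changed genes was used to test the fit. Groups came from the sample labels.

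Libraries of the same mouse are paired by animal: their deviations from group means correlated with a median of 0.48 over 22 pairs, against -0.047 over 151 pairs of different mice. The fit with mouse as a random block (correlation 0.399) was an alternative. Named genes were both genes of each pair, the X-linked members, Fau and Rack1, per stage comparison the 3 smallest adjusted p in each direction and the extreme differences, the 5 highest levels and any gene called by genotype; some of these are not reported here. Members, pairs and lists were chosen with earlier results of these data known. In sorted cells, limma p-values without the block measure the spread between libraries of the same genotype and stage. They treat libraries of the same mouse as independent, although these correlated as given above. In whole testes, where each library came from a different mouse, p-values measure the spread between these mice. Estimated reads rest on the transcripts of 200 to 2500 bases with up to 6 reads; 93.1% to 94.6% of their values fell within 0.06 of a whole read. These cover counting error only. Without depth in the file for mouse 613, its precision is unknown.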

Additional observations from a re-analysis of the deposited data

Results flagged for a closer look

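In 2 of 18 gene and group combinations of 4 or 5 knockout libraries, a library lay far from the rest. For normally distributed values chance alone gives this in about 1 of 20 combinations, so 2 of 18 can arise by chance. Whether the RPKM values were distributed in this way was not tested. The knockout primary spermatocyte library of mouse 614 held 62.1 RPKM of Rpl10 summed over transcripts, against 14.9 RPKM or less in the other 3. The knockout whole testis of mouse 308 held 246 RPKM of Rpl14, against 85.8 RPKM or less in the other 4.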

How the results depend on the processing

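Of the alternatives for named genes, 371 kept both direction and side of the threshold, 46 lost and 8 gained the call, and none turned the direction. Counts of genes called higher in primary spermatocytes against spermatogonia (1) were 2 after quantile normalization, 3 with the replicate block, 0 in wildtype libraries only, 2 without the library of mouse 613 and 2 without the spermatogonia library of mouse 544, and 0 to 2 without single mice. Genes called lower there (7) numbered 21 after quantile normalization, 13 with the block, 11 without the library of mouse 613 and 12 without the spermatogonia of mouse 544, and 4 to 14 without single mice. With the block, 1 gene was higher and 6 were lower in secondary against primary spermatocytes (0 and 0), and 6 were lower in spermatids against secondary spermatocytes (1). That last count was 0 with the longest transcript, no filter, a pseudocount of 1, quantile normalization and wildtype libraries only, and 0 to 1 without single mice. In spermatids against spermatogonia, the count higher (1) was 2 with the block and without the library of mouse 613, 0 with the longest transcript, no filter, a pseudocount of 1 and wildtype libraries only, and 0 to 2 without single mice; the count lower (36) was 58 after quantile normalization and 18 to 54 without single mice. Without mouse 286, 1 gene was called between genotypes in sorted cells (0), the range without single mice being 0 to 1. On the longest transcript the Rpl22l1 share rose by 38.4 percentage points, past the threshold. For each of these the cause was not tested. In whole testes the block could not be fitted, since each mouse gave 1 library. Depth limits Rpl10l and Rpl39l in the ovary, at 6 and 18 estimated reads. Against all 7 testes, a comparison chosen after seeing the data, 59 members were 2-fold higher in the ovary and 3 lower.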
